A study of Mus musculus with 6 samples.

Results

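The genes of mitosis were followed after knockdown of Gch1 in BV2, a mouse microglia-derived cell line. The 58 genes comprise the G2/M cyclins and their kinase, the mitotic kinases, the spindle checkpoint, kinetochore and centromere proteins, mitotic kinesins, spindle and cytokinesis proteins, condensin and 2 transcription factors. They were taken from a list of gene names and not by a rule on measured values. The list was, however, chosen with earlier results of these data known. All 58 had a row among the 12327 genes of the table. RNA had been sequenced from 3 GCH1-KD libraries, made 48 hours after infection with the adenovirus Ad-shGCH1, and from 3 negative control libraries (Ad-NC) of the same subline. The series text calls the control cells wild type, and the labels leave unclear whether they received a virus. Nothing in the labels ties replicate libraries to separate cultures. A p-value here therefore reflects library-to-library spread alone, part or all of which may be technical. All of these cells are 1 line that divides in culture, and no synchronised or sorted cells were labelled.

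Entry into mitosis is driven by cyclin B and Cdk1, and Plk1 and the Aurora kinases then build the spindle and correct its attachments. The spindle checkpoint holds back Cdc20 and the anaphase-promoting complex until every kinetochore is attached. Most of these genes are transcribed late in the cycle by the MuvB core with B-Myb (Mybl2) and Foxm1. In resting cells the same core, joined to E2F4 and a pocket protein, represses them through a promoter element called the CHR (cell cycle genes homology region), often beside CCAAT boxes bound by NF-Y. The summed RNA of such genes in a culture therefore follows the share of cells in G2 and mitosis as well as the RNA per cell, and bulk libraries cannot tell the one from the other.

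The promoters of these genes were read first. The CHR was not used to choose the list, but it is known from genes of this class. A high share of it in the list is therefore not an independent finding. RefSeq promoter windows (build GRCm38.p6, 250 bases before to 50 after a transcription start) were found for 48 of the 58 genes. The CHR was searched as TTTGAA or TTCGAA on both strands and the CCAAT box as CCAAT on both strands. The last base of a CHR can also be the first of a reversed CCAAT box. A CHR was present in 38 of the 48 genes (79.2%), against 16.5% of the 8736 tested genes with a window and 21.7% of all 27025 RefSeq genes with one. Within 50 bases of the start it was present in 34 genes (70.8%), against 6.12% of all RefSeq genes. A CCAAT box was found in 35 genes (72.9%), against 43.3% of tested genes, and both elements in 32 (66.7%), against 7.20%. A CHR was present in 31 of 63 other mitotic genes (49.2%) and in 7 of 36 genes of G1/S and DNA replication (19.4%). These are matches of letters and not tested sites.

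Below are the 80 bases before and 40 after the start, with every CHR and CCAAT match in capitals. The first 7 genes are a cyclin, its kinase, Cdc20, a Cdc25 phosphatase, a passenger protein, a kinesin and a centromere histone, each with a CHR near the start, and the last 3 are genes without one that are described further on.
Ccnb2, chr9:70421515-70421634, minus strand: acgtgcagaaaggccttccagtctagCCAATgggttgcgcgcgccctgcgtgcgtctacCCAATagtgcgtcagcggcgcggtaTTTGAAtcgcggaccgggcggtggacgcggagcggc
Cdk1, chr10:69352873-69352992, minus strand: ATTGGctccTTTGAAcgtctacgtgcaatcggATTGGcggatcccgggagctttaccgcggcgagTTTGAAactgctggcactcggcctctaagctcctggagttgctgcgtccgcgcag
Cdc20, chr4:118437304-118437423, minus strand: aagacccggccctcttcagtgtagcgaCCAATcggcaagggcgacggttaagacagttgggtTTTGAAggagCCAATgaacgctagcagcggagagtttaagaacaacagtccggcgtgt
Cdc25b, chr2:131186868-131186987, plus strand: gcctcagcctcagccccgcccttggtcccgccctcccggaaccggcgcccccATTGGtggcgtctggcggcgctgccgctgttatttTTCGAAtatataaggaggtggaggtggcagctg
Cdca8, chr4:124936878-124936997, minus strand: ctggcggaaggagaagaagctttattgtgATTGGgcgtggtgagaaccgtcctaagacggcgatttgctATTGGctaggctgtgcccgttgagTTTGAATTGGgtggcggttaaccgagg
Kif22, chr7:127042381-127042500, minus strand: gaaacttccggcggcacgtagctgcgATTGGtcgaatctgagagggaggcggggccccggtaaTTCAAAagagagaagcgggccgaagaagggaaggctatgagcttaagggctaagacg
Cenpa, chr5:30666806-30666925, plus strand: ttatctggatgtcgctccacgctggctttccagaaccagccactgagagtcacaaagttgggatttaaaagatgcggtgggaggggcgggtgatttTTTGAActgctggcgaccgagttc
Pttg1, chr11:43425942-43426061, minus strand: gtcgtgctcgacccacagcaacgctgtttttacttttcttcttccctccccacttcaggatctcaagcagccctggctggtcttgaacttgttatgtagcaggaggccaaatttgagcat
Cenpx, chr11:120713728-120713847, minus strand: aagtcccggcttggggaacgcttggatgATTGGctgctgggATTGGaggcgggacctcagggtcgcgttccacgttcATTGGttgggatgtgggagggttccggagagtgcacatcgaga
Mybl2, chr2:163054555-163054674, plus strand: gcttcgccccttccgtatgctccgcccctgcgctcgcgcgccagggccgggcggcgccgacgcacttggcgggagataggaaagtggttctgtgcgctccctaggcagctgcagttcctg

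Positions of a match are those of its first base, with the start base as 1 and the base before it as -1. The CHR of Ccnb2 began at 5, below CCAAT boxes at -21 and -54, and another CHR match lay farther upstream at -167. That of Cdc25b began at 8, that of Cdca8 at 14 and that of Cenpa at 17. Cdk1 had CHR matches at -15 and -71 and Cdc20 had one at -18. Kif22 had one at -17 and a distal one at -215. No CHR lay in the windows of Birc5, Ccnb1, Cenpe, Cenpx, Mad2l1, Mybl2, Ncaph, Nuf2, Nusap1 and Pttg1, and 7 of these 10 (all but Ccnb1, Cenpe and Cenpx) had no CCAAT match either. The starts used for Pttg1 and Cdca8 lay inside their annotated genes, which begin at 43426251 and 124939311 on the minus strand. Bases before those points were not searched, so the absence in Pttg1 holds for this window alone.

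**Figure D1:**
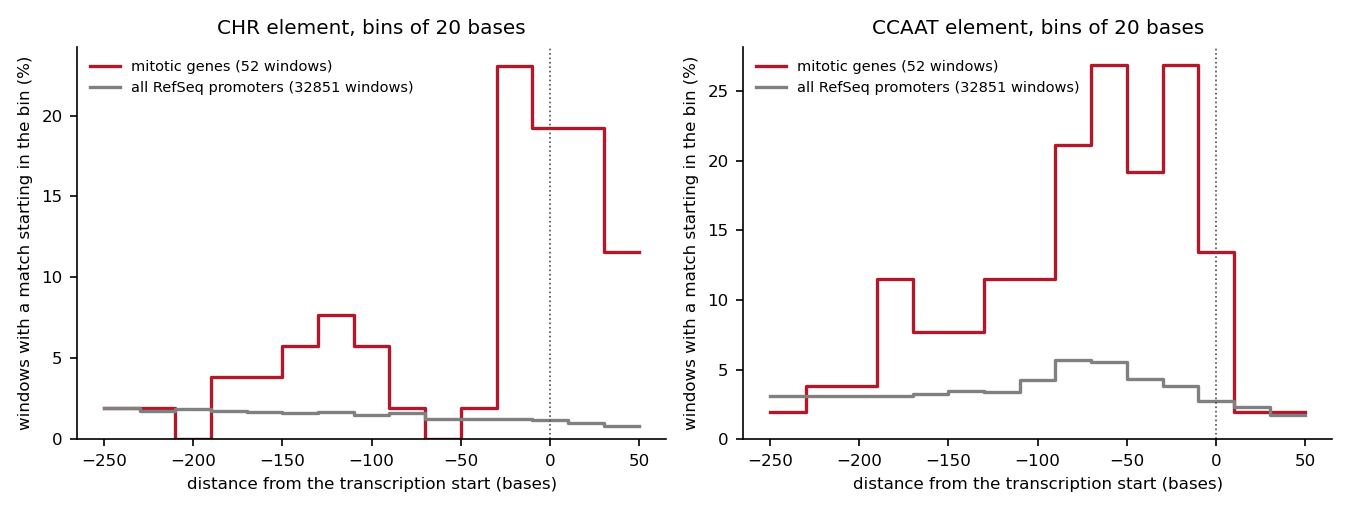
Share of promoter windows (%) in which a CHR (left) or CCAAT (right) match starts in each 20-base bin, by distance from the transcription start in bases. Red lines are the 52 windows of the mitotic genes and grey lines all 32851 RefSeq windows. CHR matches of the mitotic genes lie mainly from 30 bases before the start onward, where up to 23.1% of windows hold one per bin, while the grey CHR line stays under 2%.

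The labels and libraries were checked before the mitotic genes were compared. On chromosome 14 (47153895 to 47189413 in GRCm38, minus strand) the gene Gch1, ENSMUSG00000037580.10, averaged 3.19 ± 0.25 FPKM in the GCH1-KD libraries and 7.12 ± 0.20 FPKM in the negative controls (SD, n = 3 each). FPKM is a level per transcript length and sequencing depth. The log2 fold change was -0.96 (SE 0.06), and it passed limma with a Benjamini-Hochberg (BH) adjusted p of 0.00542 over all genes (0.00281 to 0.0724 over 17 alternatives, the highest of which miss the threshold). All 12 microglia and macrophage markers were in the table, at a summed 1282 to 1351 FPKM in GCH1-KD libraries and 1344 to 1355 FPKM in controls. Neuronal markers were 0 of 6 in the table, lymphocyte, oligodendrocyte, astrocyte, fibroblast and endothelial markers 1 or 2 each. The astrocyte marker Aldoc was at 24.7 to 26.3 FPKM in GCH1-KD libraries and 24.8 to 28.6 FPKM in controls. The endothelial markers Vwf and Flt1 summed to 26.2 to 28.8 FPKM in GCH1-KD libraries and 26.4 to 27.4 FPKM in controls. Cnp, Acta2 and Lck, of the other types, were lower. Aligned sequence, estimated from the step between values, was 6.32 to 7.61 Gb (gigabases) in the GCH1-KD libraries and 5.25 to 5.58 Gb in the controls, so depth and group cannot be told apart. At that depth the mean coverage of a mitotic gene's transcript was at least 12.2-fold in its shallowest library, with a median of 59.0-fold over the 58 genes.

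No mitotic gene passed the test, and most lay slightly below control. A count of 0 of 58 had a limma BH adjusted p under 0.05, where 10 of all 12222 genes tested (0.0818%) did. The lowest adjusted p among them was 0.359, for the passenger complex gene Cdca8. All 58 also met the filter on low values, so none was left out. The fitted log2 fold change was below 0 in 53 of 58 genes (91.4%), against 47.0% of all genes tested, with a median of -0.11 against 0.01 over all genes. It was above 0 in Pttg1, Foxm1, Bub3, Smc2 and Ttk. The differences were small: 34 genes had an absolute log2 fold change of 0.1 or more, 5 of 0.2 or more and 1, Cenpx, of 0.3 or more. The 95% interval of a single gene reached a median of 0.20 to either side, so 0 was inside it for 54 of the 58 genes.

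At an unadjusted p under 0.05 there were 4 of the 58 genes, Cdc25b, Cdca8, Cenpa and Kif22, all lower. Over all genes tested 11.3% reached that level in either direction and 4.82% lower, so 4 of 58 is near the background. Every GCH1-KD library lay below every control in 3 of 58 genes, Cdc25b, Cdca8 and Cenpa, against 8.36% of all genes. Every GCH1-KD library lay above every control in 0 of 58, against 9.99% of all genes.

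The genes were also followed library by library. On the scale of log2(FPKM + 1), each gene was centred on its mean over the 6 libraries, and the median over the 58 genes was -0.15, 0.07 and -0.08 in GCH1-KD libraries 1, 2 and 3, against -0.04, 0.12 and 0.09 in control libraries 1, 2 and 3. GCH1-KD library 2 was above control library 1, so the groups overlapped. The group means were -0.05 ± 0.11 in GCH1-KD libraries and 0.06 ± 0.09 in controls (SD, n = 3 each), a difference about as large as the spread between libraries of 1 group. GCH1-KD library 1 was the lowest of the 6 in 39 of 58 genes, where 16.3% of all genes have it lowest. GCH1-KD library 2 was the highest of its group in 46 of 58 genes (28.2% of all genes), and control library 1 the lowest of its group in 49 of 58 (33.7%). The highest library of the 6 was control library 2 in 26 genes and control library 3 in 23. Both groups therefore held a library in which most of the 58 genes were low. Their coefficient of variation between libraries had a median of 9.35% in the GCH1-KD group and 8.52% in the control group, against 5.52% and 6.38% over all genes.

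**Figure D2:**
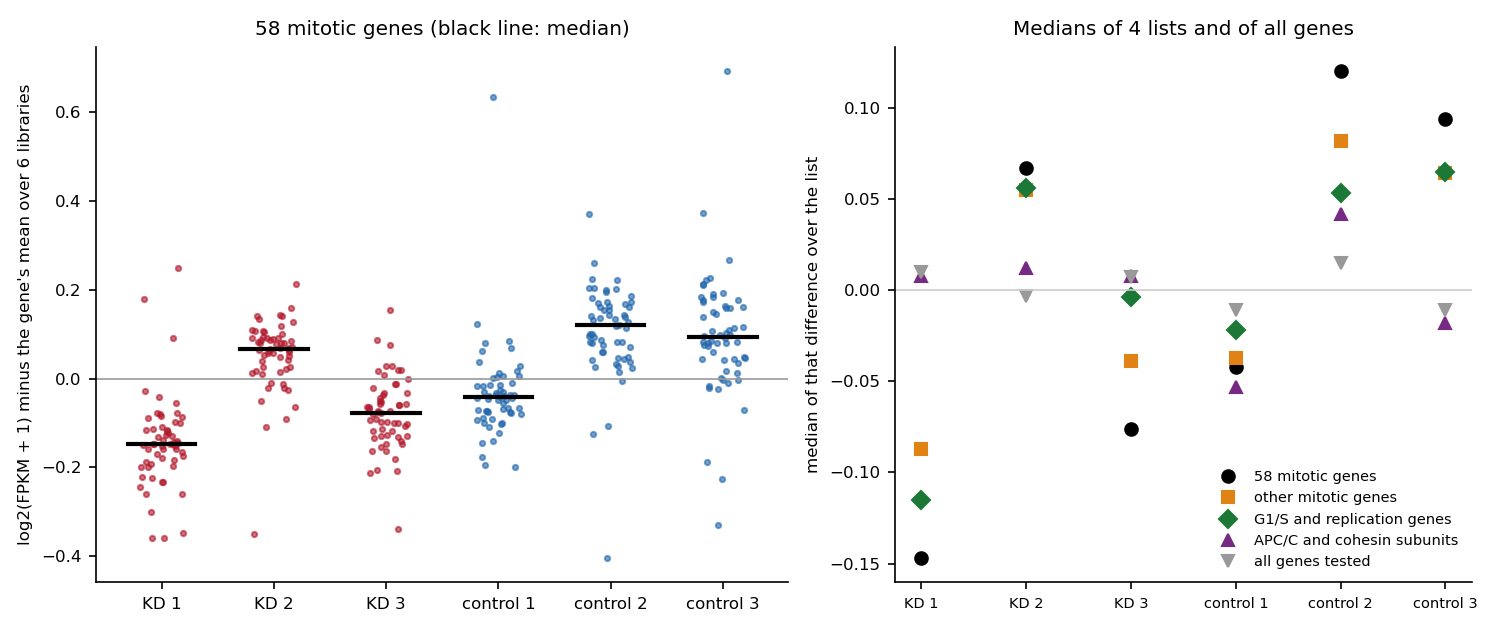
Left, log2(FPKM + 1) of each of the 58 mitotic genes minus its mean over the 6 libraries, by library, with GCH1-KD in red, controls in blue and the median as a black line. Right, the same median for 4 lists and for all genes tested. GCH1-KD library 1 (median -0.15) and control library 2 (0.12) are the extremes, and GCH1-KD library 2 (0.07) lies above control library 1 (-0.04).

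Without GCH1-KD library 1, 44 of the 58 genes were below control with a median of -0.07, and 0 had an unadjusted p under 0.05 by limma, against 8.48% of all genes. Counts at that level and their shares over all genes take both directions together, here and in the fits that follow. Without GCH1-KD library 2 the values were 55 genes, -0.17 and 20 genes, against 9.26% of all genes. Without control library 1 they were 54 genes, -0.17 and 14 genes, against 8.72% of all genes. In fits that ignored replicate numbers, these counts were thus above the background when either of these libraries was left out. With all 6 libraries the count was near the background in such a fit. It was higher when the replicate numbers were fitted as a block. Then 13 of the 58 genes had an unadjusted p under 0.05 by limma, against 10.9% of all genes. Correcting the blocked fit for GC and length as well gave 21 genes, against 10.8%. The fits with a library left out had no block. Leaving out GCH1-KD library 3, control library 2 or control library 3 gave 52, 48 and 53 genes below control, medians of -0.10, -0.08 and -0.09, and 1 gene at that level each time, against 8.89%, 13.6% and 9.28% of all genes. GCH1-KD library 1 also had the largest estimated depth (7.61 Gb), and control library 2 the smallest (5.25 Gb). Between the other GCH1-KD libraries the order was the other way. Library 2 was deeper (6.86 Gb) with a centred median of 0.07, and library 3 shallower (6.32 Gb) with -0.08. Between the other controls the deeper library was again the lower one. Control library 1 (5.58 Gb) was at -0.04 and control library 3 (5.52 Gb) at 0.09. The part of depth in the difference was not tested. The libraries also differ along the GC content of transcripts, so genes were divided by GC into 5 groups. The mitotic genes were below control in 14 of 16, 12 of 13, 11 of 12, 12 of 13 and 4 of 4 from the lowest to the highest group. Their median log2 fold change in these groups was -0.09, -0.12, -0.11, -0.16 and -0.11, while that of all genes was 0.06, 0.02, 0.00, -0.02 and -0.03. With the GC and length trend removed, 55 of 58 were below control, with a median of -0.13.

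**Figure D3:**
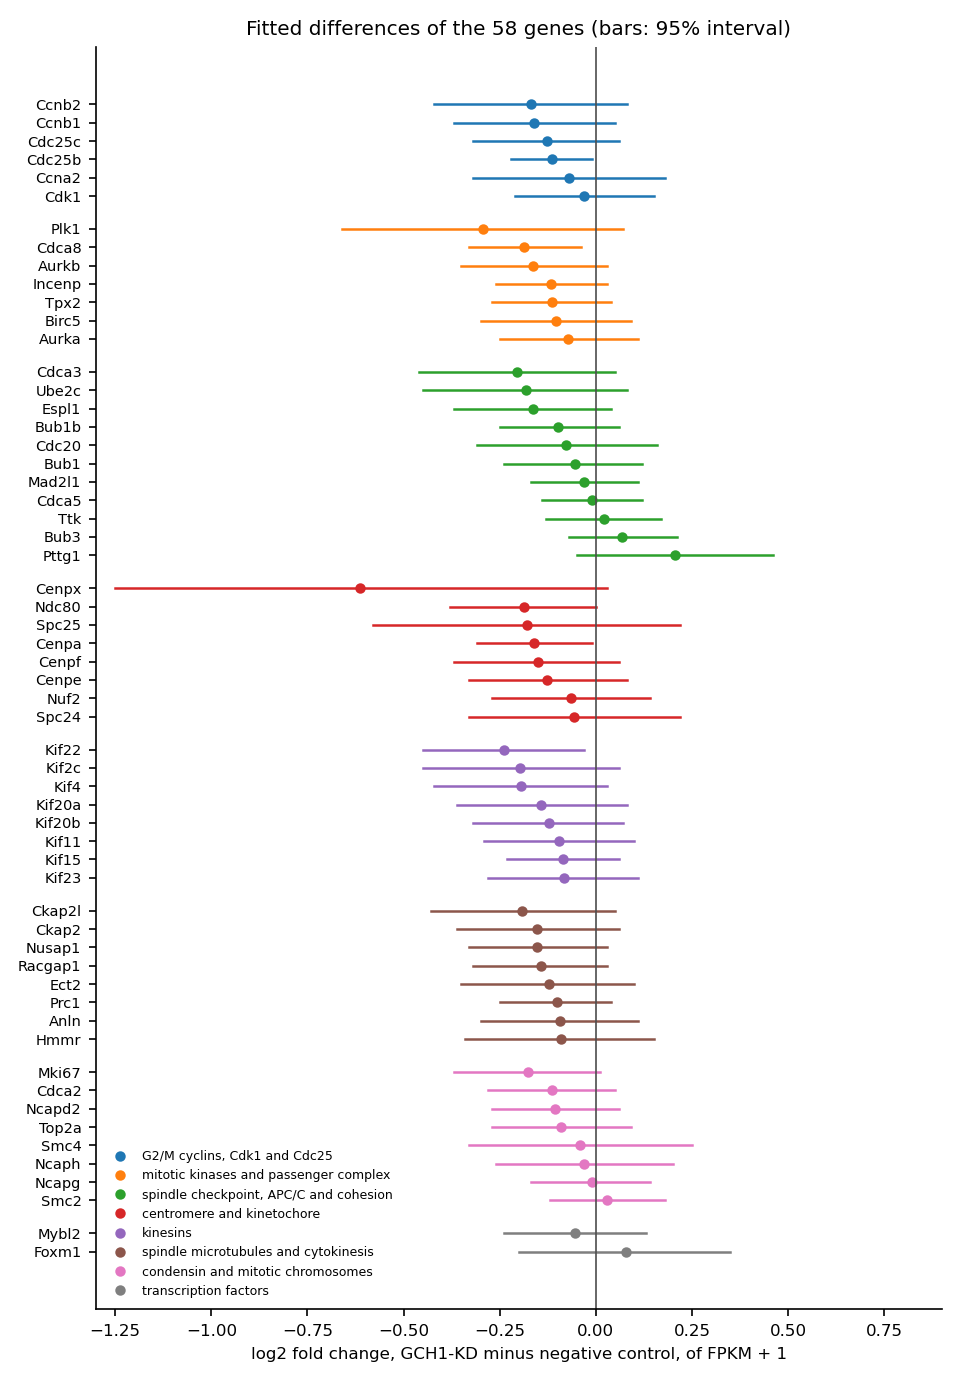
Fitted log2 fold change (GCH1-KD minus negative control, of FPKM + 1) of each of the 58 genes, grouped and coloured by role. Points are estimates and bars 95% intervals from limma, and 53 points lie left of 0. The bar of Cenpx, from -1.25 to 0.03, is the widest.

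Values are given below in FPKM in the order of library numbers 1, 2 and 3. In the switch into mitosis all 6 genes were below control and none passed, with a median log2 fold change of -0.12. Cdc25b, a phosphatase that activates Cdk1 (chromosome 2, 131186949 to 131198497, plus strand), was at 27.8, 30.4 and 28.6 in GCH1-KD libraries, against 30.7, 31.1 and 32.3 in controls. The groups did not overlap. Their difference was -0.12 on the log2 scale (SE 0.045), with an adjusted p of 0.41 by limma. It shares 334 bases with Spef1 on the other strand, which was at 0.615, 0.627 and 0.644 FPKM in GCH1-KD libraries and 0.623, 0.431 and 0.598 FPKM in controls. Ccnb1, cyclin B1, was at 12.0, 15.2 and 14.1 in GCH1-KD libraries, against 14.7, 16.7 and 15.01 in controls, and Ccnb2, cyclin B2, at 25.5, 33.1 and 28.6 in GCH1-KD libraries, against 28.7, 34.7 and 34.8 in controls. In both cyclins GCH1-KD library 2 reached into the control range. Cdk1, the kinase itself, differed least, with 10.0 ± 1.04 FPKM in GCH1-KD libraries and 10.2 ± 0.42 FPKM in controls (SD, n = 3 each) and a log2 fold change of -0.03. Ccna2 and Cdc25c were at -0.07 and -0.13.

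Among the mitotic kinases and the chromosomal passenger complex all 7 genes were below control and none passed, with a median of -0.12. Cdca8, borealin, which holds the passenger complex together (chromosome 4, 124918465 to 124939311, minus strand), was at 5.79, 6.16 and 6.07 in GCH1-KD libraries, against 6.402, 7.20 and 7.37 in controls. The groups did not overlap, and the log2 fold change was -0.19 (SE 0.06). The gene 9930104L06Rik overlaps it by 2264 bases on the other strand, at 3.403, 3.45 and 1.74 FPKM in GCH1-KD libraries and 2.46, 2.92 and 3.14 FPKM in controls. Aurkb, the kinase of that complex, was at 8.69, 10.9 and 10.1 in GCH1-KD libraries, against 10.6, 11.8 and 11.1 in controls. Incenp, the scaffold that activates it, and Birc5, survivin, were at log2 fold changes of -0.12 and -0.11. Tpx2, which activates Aurora A on the spindle, was the highest of this group at 30.9, 36.2 and 33.5 in GCH1-KD libraries, against 33.9, 37.3 and 37.8 in controls, and Aurka itself was at a log2 fold change of -0.07. Plk1, picked after its values were seen because its log2 fold change of -0.29 (SE 0.16) was second in size after that of Cenpx, was at 13.2, 16.6 and 16.8 in GCH1-KD libraries, against 14.9, 20.8 and 22.6 in controls. Control library 1 lay inside the range of the GCH1-KD libraries.

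The checkpoint, its target and cohesion were the most mixed of the larger groups, with 8 of 11 genes below control, 3 above and a median of -0.06; none passed. Pttg1, securin, which restrains separase until anaphase (chromosome 11, 43420250 to 43426251, minus strand), was at 7.83, 7.67 and 8.22 in GCH1-KD libraries, against 8.03, 6.70 and 5.60 in controls. The GCH1-KD libraries were close to each other and control library 1 was among them. Their difference was 0.21 on the log2 scale (SE 0.11), with an adjusted p of 0.512 by limma. Espl1, separase, was at a log2 fold change of -0.16. Cdca3, which promotes mitotic entry through degradation of Wee1, was at 9.64, 12.6 and 12.8 in GCH1-KD libraries, against 12.6, 14.5 and 13.6 in controls. Bub1b, BubR1 of the checkpoint complex, was the highest of the group at 28.3, 33.1 and 29.9 in GCH1-KD libraries, against 30.6, 33.5 and 33.8 in controls. Its partners Bub3 and Mad2l1 were at log2 fold changes of 0.07 and -0.03, the checkpoint kinases Bub1 and Ttk at -0.06 and 0.02, and the inhibited target Cdc20 at -0.08. Ube2c, the ubiquitin-conjugating enzyme of the anaphase-promoting complex, was at -0.18 and Cdca5, sororin, which protects cohesion, at -0.01.

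At centromere and kinetochore all 8 genes were below control, with a median of -0.16, and none passed. Cenpa, the histone H3 variant that marks centromeres (chromosome 5, 30666777 to 30674830, plus strand), was at 8.85, 8.81 and 8.999 in GCH1-KD libraries, against 9.91, 11.04 and 9.28 in controls. The GCH1-KD libraries were close to each other and below all controls. The difference was -0.16 on the log2 scale (SE 0.06), with an adjusted p of 0.41 by limma. Ndc80, the microtubule-binding arm of the kinetochore, was at 10.5, 12.8 and 10.7 in GCH1-KD libraries, against 12.0, 13.6 and 13.4 in controls. Its complex partners Nuf2, Spc24 and Spc25 were at log2 fold changes of -0.07, -0.06 and -0.18, and the outer kinetochore proteins Cenpe and Cenpf at -0.13 and -0.15.

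Cenpx, a small histone-fold protein of the centromere that also serves the Fanconi anaemia pathway (chromosome 11, 120710942 to 120713738, minus strand), was picked after its values were seen because it had the largest fitted difference, -0.61 on the log2 scale (SE 0.27), with an adjusted p of 0.466 by limma. It was at 5.47, 5.52 and 6.17 in GCH1-KD libraries, against 11.9, 5.28 and 12.4 in controls. Control library 2 was thus with the GCH1-KD libraries, while the other two controls were about as far from it as from them. Without control library 2 the log2 fold change was -0.97 with a limma BH adjusted p of 0.0185, within a range of 0.0185 to 0.678 over 17 alternatives. The coefficient of variation of Cenpx was 6.85% between GCH1-KD libraries and 40.3% between controls, the highest of the 58 genes there. It has 5 annotated transcripts in GENCODE M21, and a level summed over them does not show which one differed. Without Cenpx, 52 of the remaining 57 genes were below control.

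All 8 kinesins were below control and none passed, with a median of -0.13. Kif22, a chromokinesin that pushes chromosome arms to the spindle equator (chromosome 7, 127027729 to 127042471, minus strand), was at 4.38, 5.59 and 4.44 in GCH1-KD libraries, against 5.58, 6.19 and 5.71 in controls. GCH1-KD library 2 and control library 1 were almost level. The difference was -0.24 on the log2 scale (SE 0.09), with an adjusted p of 0.387 by limma. Kif4, a chromokinesin that also acts with Prc1 at the midzone, was at 5.31, 6.87 and 5.69 in GCH1-KD libraries, against 6.44, 6.80 and 7.59 in controls. Kif11, the motor that separates spindle poles, was the highest kinesin at 17.3, 20.3 and 17.2 in GCH1-KD libraries, against 17.9, 21.3 and 19.5 in controls. The microtubule depolymerase Kif2c was at a log2 fold change of -0.20, the cytokinesis motors Kif20a, Kif20b and Kif23 at -0.14, -0.12 and -0.08, and Kif15, which backs up Kif11, at -0.085.

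Spindle and cytokinesis genes were likewise below control in 8 of 8, with none passed and a median of -0.13. Nusap1, which bundles spindle microtubules, was at 10.3, 11.9 and 10.0 in GCH1-KD libraries, against 11.2, 11.9 and 13.0 in controls. Racgap1, which with Kif23 forms centralspindlin, was at 9.82, 11.1 and 10.1 in GCH1-KD libraries, against 10.5, 11.5 and 12.6 in controls. Ckap2l, a spindle-associated protein, was at 15.2, 18.8 and 15.4 in GCH1-KD libraries, against 16.8, 19.4 and 20.7 in controls. In all 3 genes GCH1-KD library 2 lay within the control range. The midzone bundler Prc1, the furrow scaffold Anln and the RhoA exchange factor Ect2 were at log2 fold changes of -0.10, -0.09 and -0.12, and Hmmr and Ckap2 at -0.09 and -0.15.

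For condensin and mitotic chromosomes, 7 of 8 genes were below control, with none passed and a median of -0.07. Mki67, the chromosome surface protein known as Ki-67 and a standard marker of dividing cells, was the most abundant of the 58, at 56.0, 63.8 and 57.1 in GCH1-KD libraries, against 59.6, 69.3 and 71.7 in controls. GCH1-KD library 2 was above control library 1, and the difference was -0.18 on the log2 scale (SE 0.08), with an adjusted p of 0.476 by limma. Cdca2, which brings a phosphatase to chromosomes at mitotic exit, was at 5.65, 6.49 and 6.16 in GCH1-KD libraries, against 6.22, 7.25 and 6.59 in controls. Top2a, which disentangles sister DNA, was at a log2 fold change of -0.09. Of the 5 condensin I subunits, Smc2 was at 0.03, Smc4 at -0.04, Ncapd2 at -0.11, Ncapg at -0.01 and Ncaph at -0.03.

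Neither of the 2 transcription factors passed, and their groups overlapped. Foxm1 was at 6.77, 5.48 and 5.02 in GCH1-KD libraries, against 5.91, 5.67 and 4.59 in controls, highest in the library in which most of the other genes were lowest. Its log2 fold change was 0.08 (SE 0.12). Mybl2 was at 16.4, 20.2 and 17.2 in GCH1-KD libraries, against 17.9, 18.4 and 19.5 in controls, with a log2 fold change of -0.05 (SE 0.08). Genes with a CHR in their window were below control in 35 of 38, with a median of -0.12, and genes without one in 9 of 10, with a median of -0.09.

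**Figure D4:**
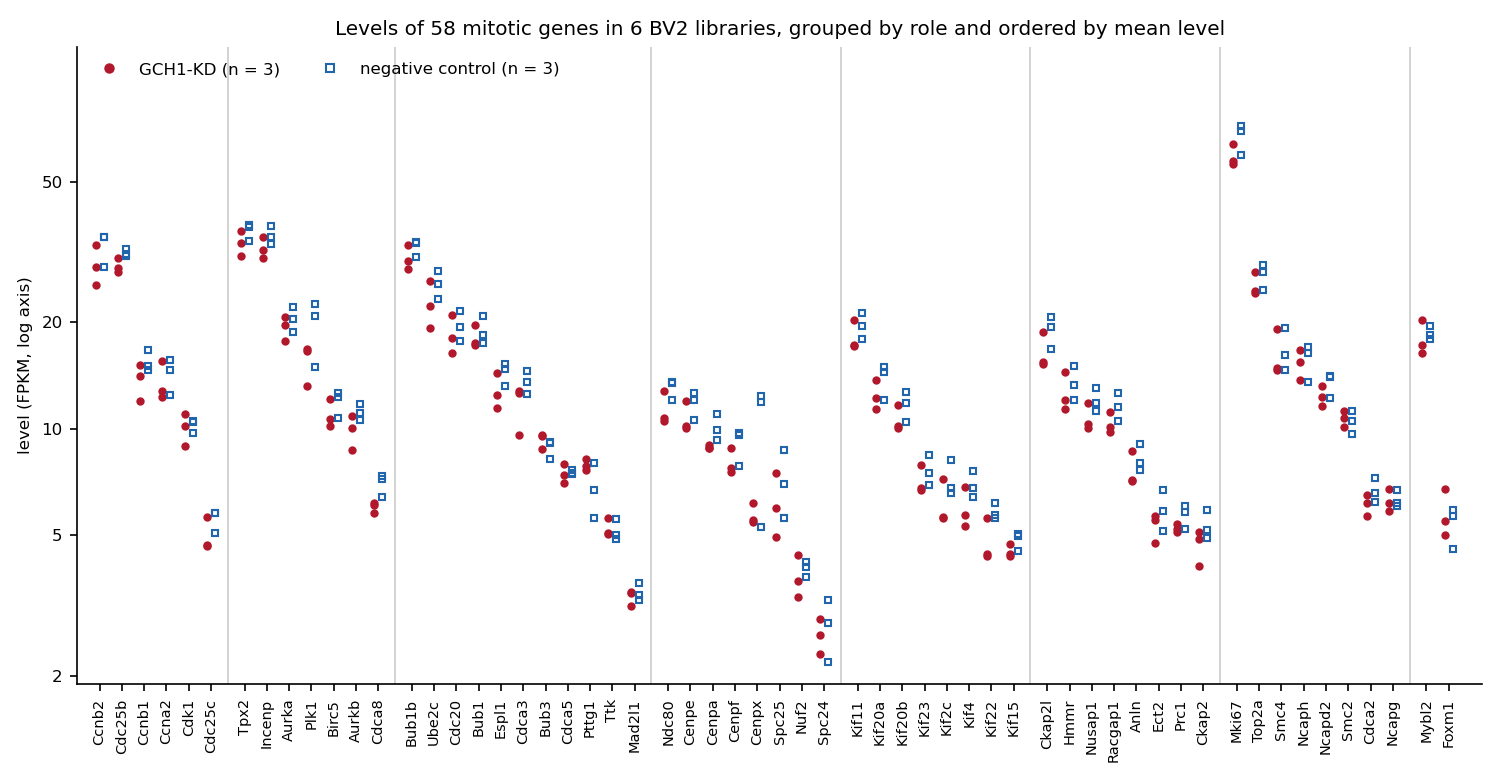
Level (FPKM, log axis) of each of the 58 genes in the 3 GCH1-KD libraries (red circles) and the 3 negative controls (blue squares), grouped by role and ordered by mean level within a role. Levels run from 2.69 FPKM for Spc24 to 62.9 FPKM for Mki67 as means over 6 libraries, and apart from Cdc25b, Cdca8 and Cenpa the groups overlap.

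The levels themselves spanned 23.4-fold from Spc24 to Mki67. The values were taken as FPKM, and they compare between genes only as far as the transcript lengths behind them hold, which are not given. A mean of 10 FPKM or more was reached by 33 genes and a mean under 5 FPKM by 4, and 45 of 58 lay above the median gene of the table (6.43 FPKM). Within a complex, the subunit with the highest mean in these data was compared with the one with the lowest. A ratio above 1 was thus fixed by the choice, and other pairs of a complex, where there are any, lie closer together. In the checkpoint complex Bub1b was 9.08 ± 0.50 times as high as Mad2l1 in GCH1-KD libraries and 9.48 ± 0.40 times in controls (SD, n = 3 each). In the passenger complex Incenp was 5.39 ± 0.22 times as high as Cdca8 in GCH1-KD libraries and 5.04 ± 0.19 times in controls, and in the Ndc80 complex Ndc80 was 4.38 ± 0.61 times as high as Spc24 in GCH1-KD libraries and 4.79 ± 0.70 times in controls. Within condensin I, Smc4 was 2.58 ± 0.22 times as high as Ncapg in GCH1-KD libraries and 2.64 ± 0.22 times in controls. In centralspindlin, Racgap1 was 1.46 ± 0.05 times as high as Kif23 in GCH1-KD libraries and 1.52 ± 0.02 times in controls. In all 5 pairs the ranges of mean ± SD of the ratio overlapped between the groups, and the ratios were not tested.

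Other genes of the cell cycle were followed for comparison. Of 76 other mitotic genes, 0 passed limma at the BH adjusted level, and 53 (69.7%) were below control with a median of -0.05. An unadjusted p under 0.05 by limma was reached by 9 of the 76, all lower. Over all genes 4.82% reached it lower and 11.3% in either direction. In 9 of the 76 every GCH1-KD library lay below every control (8.36% of all genes), and in 0 above (9.99%). The smallest p belonged to Kif18b, a microtubule-end kinesin, which was at 5.26, 6.36 and 5.69 FPKM in GCH1-KD libraries, against 6.90, 7.18 and 7.71 FPKM in controls (-0.29 on the log2 scale, SE 0.07, adjusted p = 0.292 by limma). The kinase Melk and the Cdk1-inhibiting kinase Wee1 were at -0.19 each, also with groups that did not overlap. A further list held subunits of the anaphase-promoting complex and cohesin, most of them made through the whole cycle, and some regulators such as Ube2s and Pds5a. Of these genes 9 of 24 were below control, with a median of 0.02 and 0 past either level. Pds5a was at -0.20, Stag2 at 0.12 and Anapc11 at 0.09. Centred in the same way, their median was 0.01 in each GCH1-KD library, against -0.05, 0.04 and -0.02 in control libraries 1, 2 and 3.

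In G1/S and DNA replication 36 of 48 genes (75.0%) were below control, with a median of -0.04, and 0 passed. An unadjusted p under 0.05 by limma was reached by 3 of the 48, all lower, against 4.82% of all genes. Ccnd1, cyclin D1, was at 38.1, 37.7 and 38.2 FPKM in GCH1-KD libraries, against 46.1, 45.3 and 45.9 FPKM in controls. Unlike most of the mitotic genes it was level within each group. The difference was -0.26 on the log2 scale (SE 0.03, adjusted p = 0.0718 by limma, 0.0602 to 0.402 over the alternatives). The polymerase genes Pold1 and Pola2 were at -0.18 and -0.15. Of 21 measured MuvB, E2F and NF-Y regulators 13 were below control (median -0.03) and 0 passed. An unadjusted p under 0.05 by limma was reached by 3, of which 2 were lower, against 11.3% of all genes in either direction. E2f8, a repressive E2F, was at 4.36, 4.84 and 5.17 FPKM in GCH1-KD libraries, against 6.10, 5.87 and 6.39 FPKM in controls (-0.30 on the log2 scale, SE 0.07, adjusted p = 0.262 by limma), and E2f1 was at -0.14. Nfya, the NF-Y subunit that contacts the CCAAT box, was at 14.7, 13.9 and 13.9 FPKM in GCH1-KD libraries, against 13.85, 9.13 and 9.25 FPKM in controls (0.39 on the log2 scale, SE 0.14, adjusted p = 0.384 by limma). Control library 1 was just under the lowest GCH1-KD library, at 13.88, and without it the log2 fold change was 0.57 with a limma BH adjusted p of 0.0307 (0.0307 to 0.619 over the alternatives).

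Of 6 measured CDK inhibitors, which restrain division, 5 were below control (median -0.18) and 0 passed. An unadjusted p under 0.05 by limma was reached by 2, each lower, against 4.82% of all genes. Cdkn2b was at 5.47, 5.29 and 5.64 FPKM in GCH1-KD libraries, against 6.91, 6.44 and 6.22 FPKM in controls (-0.22 on the log2 scale, SE 0.055, adjusted p = 0.292 by limma). Cdkn2a was at 63.1, 68.5 and 70.7 FPKM in GCH1-KD libraries, against 78.9, 71.3 and 79.1 FPKM in controls (-0.18). Cdkn2c was at -0.18 with groups that overlapped.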

How the data were processed

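RNA of 3 GCH1-KD and 3 negative control samples was sequenced from ribosomal RNA-depleted, stranded libraries, per the labels. The authors deposited 1 table of gene values with no unit named. They were taken as FPKM computed by the authors, since they are not whole and sum to 224291 to 230292 per library. HISAT2, StringTie and edgeR are named in the submitters' processing notes without versions or roles, beside the build hg38, although the identifiers are mouse. The strand setting of counting is not given in the sources used here, and 9 of the 58 genes overlap a table gene on the opposite strand. Names, positions and transcripts came from GENCODE M21 (GRCm38), which matched 12306 identifiers without versions.

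The 12222 genes reaching 0.5 FPKM in 3 or more of the 6 libraries were fitted with limma 3.58.1 (R 4.3.3) on log2(FPKM + 1) with a mean-variance trend, no covariate and Benjamini-Hochberg adjustment. Fold changes are GCH1-KD minus control, and the pseudocount of 1 shrinks those of weak genes. The fit was tested on simulated data. Depth was estimated from genes with 1 transcript, where FPKM times length times depth gave a whole number of bases, within 0.1, in 73.9% to 75.8% of 754 to 833 genes, against 20.0% by chance. Named genes are the 2 with the smallest p and the most abundant of each role, and up to 3 per other list; Plk1, Cenpx, members given by fold change alone and the NF-Y and MuvB genes other than Nfya, named after their values were seen, lie outside that rule. The members, lists and rule were chosen with earlier results of these data known. Alternatives were each library left out, a replicate block, other filters, pseudocounts, scalings and moderation, a loess correction (span 0.3) for transcript GC and length, and, added after the data were seen, the list without Cenpx. Python 3.11.15, numpy 2.4.6, pandas 2.3.3 and scipy 1.17.1 were used.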

Additional observations from a re-analysis of the deposited data

How the results depend on the processing

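A mitotic gene passed the limma threshold in 1 of the 17 alternatives, Cenpx without control library 2, so that 0 to 1 of the 58 passed with a library left out. The count of genes below control was then 44 to 55 and the median log2 fold change -0.168 to -0.067. Over all genes 6 to 18 passed with a library left out (10 as reported), and the log2 fold change of Gch1 was -0.999 to -0.911. Of 982 values of the 58 genes under the alternatives, 28 changed sign, in 14 genes, none of them called. With the GC and length trend removed, with or without the block, Ttk was at -0.008 and Smc2 at -0.016. With a library left out, log2 fold changes reached both signs in Cdk1 (-0.093 to 0.043), Bub1 (-0.114 to 0.012), Ttk (-0.020 to 0.067), Mad2l1 (-0.057 to 0.005), Cdc20 (-0.168 to 0.002), Cdca5 (-0.053 to 0.028), Nuf2 (-0.150 to 0.004), Spc24 (-0.171 to 0.042), Smc2 (-0.025 to 0.076), Smc4 (-0.159 to 0.059), Ncapg (-0.061 to 0.030), Ncaph (-0.127 to 0.037), Foxm1 (-0.027 to 0.157) and Mybl2 (-0.139 to 0.005). The cause was not tested.

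Titles give both groups the numbers 1 to 3, which were fitted as a replicate block. The deviations of all genes from their group mean had correlations of 0.095, 0.059 and 0.094 in same-numbered pairs, under the 0.1 asked for to call them pairs. Over the 58 mitotic genes they were 0.455, 0.20 and 0.328, against -0.541 to 0.279 in pairs of different numbers. There GCH1-KD library 2 was closer to control library 3 (0.279) than to control library 2. GCH1-KD was below the control of its number in 51, 43 and 52 of 58 genes (median log2 differences -0.09, -0.044 and -0.17). Over all genes every library was nonetheless closest to the one sharing its number, which is a hint in the data rather than part of the design. With the block 0 genes passed limma (1330 at an unadjusted p under 0.05), also with the GC and length trend removed (0, with 1316). The Gch1 log2 fold change was then -0.956 (limma BH adjusted p = 0.0604) and -0.961 (0.0724). Of the 58 mitotic genes 0 passed, and 13 and 21 had an unadjusted p under 0.05 (10.9% and 10.8% of all genes, in either direction), against 4 without a block.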

Other observations

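The spacing of CCAAT boxes was looked up after the promoters had been seen. A pair of CCAAT matches starting 30 to 36 bases apart was present in 10 of the 48 mitotic genes with a window (20.8%), among them Ccnb2 with boxes at -54 and -21 from the start and Cdk1 with boxes at -80 and -48. Of the tested genes 3.80% had such a pair, and of all RefSeq genes 2.11%. In the other NF-Y subunit genes, Nfyb was at 2.12 ± 0.21 FPKM in GCH1-KD libraries and 2.27 ± 0.27 FPKM in controls, and Nfyc at 6.36 ± 0.77 FPKM in GCH1-KD libraries and 7.28 ± 0.19 FPKM in controls (SD, n = 3 each), without passing the test. The MuvB core genes Lin9, Lin37, Lin52 and Rbbp4 were at log2 fold changes of 0.02, 0.01, -0.04 and -0.03. Lin54, the subunit that contacts the CHR, was at -0.17, with 4.04 ± 0.27 FPKM in GCH1-KD libraries and 4.75 ± 1.17 FPKM in controls (SD, n = 3 each).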
